A study of Mus musculus with 8 samples.

Results

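The cholesterol and SREBP lipid synthesis genes are a set of 32 enzymes and regulators that build sterols and fatty acids. They were taken by gene name from tables of 22026 named genes, of which 15815 had any read, and reads of all transcripts listed under a name were summed. All 32 were expressed in all 8 libraries and passed the filter on low counts in each comparison. Sterol regulatory element-binding proteins (SREBPs) are membrane-bound transcription factors made in the endoplasmic reticulum. When membrane cholesterol is low, the escort protein SCAP carries them to the Golgi, where proteases release the active factor, while the INSIG proteins hold the complex back when sterols are plentiful. The factor encoded by Srebf2 acts mainly on cholesterol synthesis genes and that encoded by Srebf1 mainly on fatty acid synthesis genes. Proliferating tumour cells use both products to make membranes.

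Both lines studied, 4T1 and TS/A, are mouse mammary carcinoma lines labelled as BALB/c, and they were grown in RPMI with 10% FCS. The groups, of 2 libraries each, were 4T1 with a virus vector expressing Gpr56 (now Adgrg1, an adhesion G protein-coupled receptor), 4T1 with an empty vector, TS/A labelled with the Gpr56 vector and TS/A with the empty vector. The design text says that cells were cultured with type III collagen, a ligand of the receptor, for 72 h before RNA extraction. The sample titles call the same groups Emp_ColIII and Emp_Control, so the vector and the collagen culture cannot be told apart by the labels. RNA was bulk RNA, in which fewer cells of a type and less RNA per cell cannot be told apart. Nothing states that the 2 libraries of a group were separate cultures, so each p-value reflects just the spread between the libraries at hand, which could be technical.

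Depth ran from 10510569 to 25959142 reads. Adgrg1 stood at 90.5 and 100.1 CPM (counts scaled to library size by TMM over the 8 libraries) in 4T1 with the Gpr56 vector, against 2.53 and 2.77 CPM in 4T1 with the empty vector, a log2 fold change of 5.15 (SE 0.11, edgeR adjusted p = 7.74e-14). In TS/A it stood at 22.6 and 13.3 CPM in the libraries labelled Gpr56, against 34.8 and 16.3 CPM in the empty-vector ones, with overlapping groups. The biological coefficient of variation was 5.47% in 4T1 and 19.6% in TS/A. Of the epithelial markers, Epcam, Cdh1, Krt8, Krt7 and Cldn7 were below 1 CPM in all 4 TS/A libraries, while Krt18 and Krt19 were expressed there. In 4T1 the same list summed, as unscaled CPM, to 2995 and 2909.6 with the Gpr56 vector and to 2126 and 2094 with the empty vector. The adipocyte markers Adipoq, Plin1, Cidec and Lep had 0 reads in all 8 libraries.

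Promoters of 4 genes that rose in 4T1 are shown here, from the stretch of 250 bases before the RefSeq transcription start on GRCm38.p6, because cholesterol genes are known to be driven by SREBP together with NF-Y and Sp1. Capitals mark matches on either strand to TCACNCCAC (a sterol response element core), CCAAT (the NF-Y box, ATTGG on the other strand) and GGGCGG (an Sp1 box, CCGCCC on the other strand). The genes are the synthase Hmgcs1 (chr13:119690101-119690350, plus strand), the SREBP retention protein Insig1 (chr5:28071162-28071411, plus strand), the sterol decarboxylase Nsdhl (chrX:72918271-72918520, plus strand) and fatty acid synthase, Fasn (chr11:120824548-120824797, minus strand).
Hmgcs1: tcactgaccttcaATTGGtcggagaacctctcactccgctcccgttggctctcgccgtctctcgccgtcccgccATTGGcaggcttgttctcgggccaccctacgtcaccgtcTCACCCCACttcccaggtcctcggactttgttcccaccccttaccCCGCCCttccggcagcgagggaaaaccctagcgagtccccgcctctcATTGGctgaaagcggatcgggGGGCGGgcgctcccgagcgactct
Insig1: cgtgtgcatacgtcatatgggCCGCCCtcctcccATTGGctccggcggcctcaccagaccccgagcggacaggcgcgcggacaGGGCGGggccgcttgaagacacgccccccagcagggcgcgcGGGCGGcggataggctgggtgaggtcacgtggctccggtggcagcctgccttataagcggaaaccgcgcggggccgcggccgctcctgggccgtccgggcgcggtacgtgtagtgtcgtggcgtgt
Nsdhl: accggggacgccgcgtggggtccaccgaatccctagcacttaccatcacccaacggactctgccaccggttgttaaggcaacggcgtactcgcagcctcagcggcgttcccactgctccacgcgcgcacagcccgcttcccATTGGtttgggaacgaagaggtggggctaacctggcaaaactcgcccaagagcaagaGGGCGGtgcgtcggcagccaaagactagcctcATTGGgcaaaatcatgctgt
Fasn: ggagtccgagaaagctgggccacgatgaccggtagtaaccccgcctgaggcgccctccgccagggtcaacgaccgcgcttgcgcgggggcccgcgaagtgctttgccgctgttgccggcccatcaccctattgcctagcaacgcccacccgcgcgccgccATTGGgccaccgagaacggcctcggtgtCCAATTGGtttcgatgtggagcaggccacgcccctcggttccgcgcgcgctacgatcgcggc
In Fasn, neighbouring matches to CCAAT and its reverse complement overlap and are capitalised as 1 run.

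The RefSeq promoter table held 25 of the 32 genes, and Fdft1, Scd1, Stard4, Sqle, Scd2, Fdps and Fads1 had no entry. Matches were counted in its full windows of 300 bases, 250 upstream of the start and 50 downstream, so they can lie outside the stretches printed above. A gene was counted if any of its windows held a match. TCACNCCAC occurred in 1.44% of the 27025 genes with a window (1.24% of all 32851 windows). Of the 25 genes it occurred in 1, Hmgcs1, at 137 to 129 bases before the start. CCAAT occurred in 41.1% of the 27025 genes with a window and in 20 of the 25. GGGCGG occurred in 38.2% of genes and in 21 of the 25. Of the 8 genes with a window that rose in 4T1, 7 held CCAAT and 7 held GGGCGG. Of the other 17 genes, 13 held CCAAT and 14 held GGGCGG, so the boxes occurred in most of the genes whether or not they rose. These are matches of letters and not measured binding.

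Levels of different genes were compared per transcript length, as the deposited RPKM summed over the transcripts of a gene. Fdps, which makes farnesyl diphosphate at the branch point of the pathway, had the highest mean level over both lines, at 222 ± 53.6 RPKM (SD over 8 libraries). Scd2, a stearoyl-CoA desaturase, followed at 172 ± 37.9 RPKM, then the isopentenyl diphosphate isomerase Idi1 at 138 ± 37.9 RPKM and the sterol C4-methyl oxidase Msmo1 at 123 ± 10.6 RPKM. Each step down this order was smaller than the larger SD of the 2 genes. The order differed between groups, with Scd2 first by this sum in 4T1 with the Gpr56 vector and Fdps first in the other 3 groups. Among the regulators, Insig1 had the highest level in each group, with 87.3 ± 12.3 RPKM over 8 libraries. The lowest of the 32 genes was Insig2 in 4T1, at a mean of 12.4 ± 2.76 RPKM with the Gpr56 vector and 8.23 ± 0.0939 RPKM with the empty vector (SD, n = 2 each). In TS/A it was Tm7sf2, a sterol C14-reductase, at 12.1 ± 1.48 RPKM with the Gpr56 label and 12.4 ± 3.20 RPKM with the empty vector, where Insig2 stood at 27.6 ± 5.35 and 24.2 ± 1.06 RPKM. Sc5d and Fads2 had levels of 53.1 ± 7.21 and 52.2 ± 19.7 RPKM by this sum, and means of 26.6 and 26.4 RPKM with all their reads set against their longest transcript, the largest moves among the 32. For Fads2 the read-weighted transcript length was the same as the longest, 3150 bases, and its deposited RPKM did not match that length. The reason was not tested, so its level is uncertain.

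**Figure D1:**
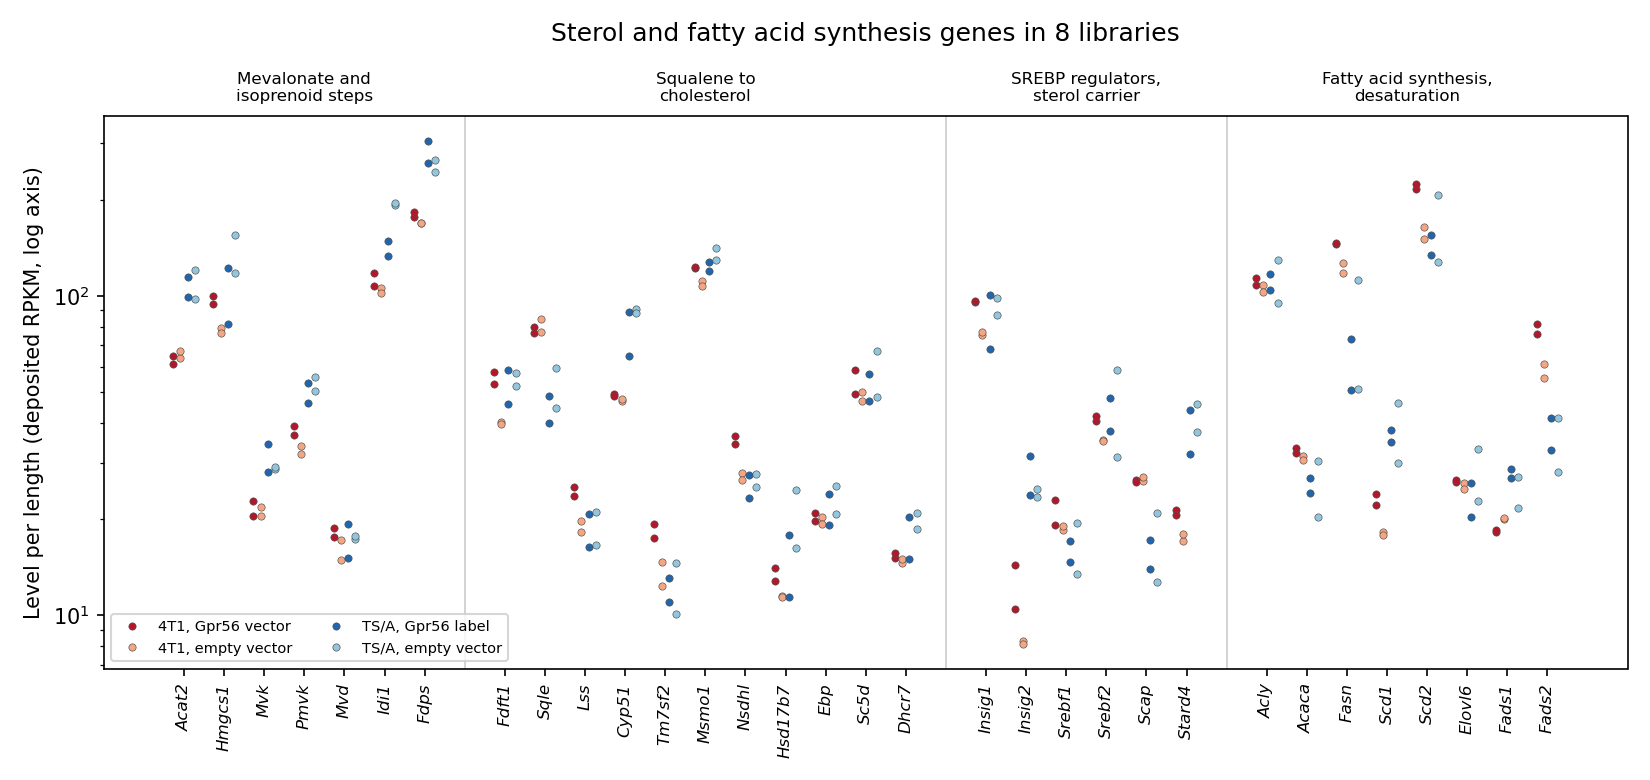
Level per length (deposited RPKM, log axis) of the 32 genes by role, with 1 point per library and the groups in the order 4T1 Gpr56, 4T1 empty, TS/A Gpr56 label and TS/A empty. Means over 8 libraries span 222 RPKM for Fdps to 14.1 RPKM for Tm7sf2, and Insig2 is the lowest gene in 4T1.

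In 4T1, 11 of the 32 genes rose with the Gpr56 vector and 0 fell, by edgeR's quasi-likelihood test on the 4T1 libraries with a threshold of 0.05 on the adjusted p. Among all 11361 genes tested in that fit, 11.5% rose and 11.3% fell. Of the 15 genes with an unadjusted p under 0.05 (35.4% of all genes), Fads1 alone was lower, and the DESeq2 Wald test called 9 higher and 0 lower. Scaling by library totals without TMM gave 13 higher and 0 lower, with 1624 higher and 1042 lower over all genes, against 1308 and 1280 with TMM. The changes were small, at 0.18 to 0.45 on the log2 scale. The median log2 fold change of the 32 was 0.13, against 0.00 over all genes tested, and 26 of 32 were above 0. Groups did not overlap in the higher direction for 21 of 32 genes and in the lower direction for 2, against 30.5% and 31.2% of all genes. By role, 1 of 7 mevalonate and isoprenoid genes, 4 of 11 genes from squalene to cholesterol, 2 of 6 regulators and carriers, and 4 of 8 fatty acid genes rose.

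The statement rests on the 4T1 spread alone. With all 8 libraries in 1 fit, where the TS/A spread enters, 0 of the 32 passed, and few of all genes tested passed either. In that fit 5 of the 32 had an unadjusted p under 0.05, with the same median of 0.13. With weights that let the spread differ between groups (limma voom, all 8 libraries), 8 passed. The shares over all genes beside these 5 and 8 are not given here. Markers of cell types moved with the set. Of 7 epithelial markers 6 rose in 4T1. Of 6 fibroblast markers 2 could be tested and Pdgfra fell, at 7.96 and 8.25 CPM with the Gpr56 vector, against 13.3 and 13.3 CPM in empty-vector cells (-0.72, SE 0.14, adjusted p = 0.00213), while Col1a1 was below 2 CPM in each 4T1 library and Col3a1, Dcn and Lum had 0 reads. The fibroblast list summed, as unscaled CPM, to 8.64 and 9.51 with the Gpr56 vector and to 15.4 and 15.03 with the empty vector. The part of these markers in the result was not tested.

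Of the mevalonate steps, Hmgcs1, the synthase that makes HMG-CoA, stood at 338 and 309.96 CPM with the Gpr56 vector, against 274 and 267 CPM in empty-vector cells (log2 fold change 0.26, SE 0.06, adjusted p = 0.00403). Both Gpr56 libraries were above both empty ones. Fdps, the most abundant gene of these steps, stood at 230.2 and 235 CPM with the Gpr56 vector, against 222 and 225 CPM in empty-vector cells and was not called (log2 fold change 0.06, SE 0.05, adjusted p = 0.501), although its groups did not overlap. Acat2, the cytosolic thiolase at the start of the pathway, ran the other way at 142 and 144 CPM with the Gpr56 vector, against 149 and 159 CPM in empty-vector cells (-0.11, SE 0.06, adjusted p = 0.186). The remaining 4, Mvk, Pmvk, Mvd and Idi1, had log2 fold changes from 0.05 to 0.18, and none passed.

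The steps after farnesyl diphosphate held 4 of the increases. Fdft1, squalene synthase, stood at 151 and 162 CPM with the Gpr56 vector, against 119 and 116 CPM in empty-vector cells (log2 fold change 0.41, SE 0.06, adjusted p = 1.73e-04). Nsdhl, which removes a methyl group from sterol precursors, stood at 78.4 and 82.4 CPM with the Gpr56 vector, against 64.5 and 61.8 CPM in empty-vector cells (0.35, SE 0.06, adjusted p = 0.00136). Lss, lanosterol synthase, stood at 116 and 123 CPM with the Gpr56 vector, against 98.3 and 91.6 CPM in empty-vector cells (0.33, SE 0.06, adjusted p = 0.00163). All 3 were higher in each Gpr56 library than in either empty one. Tm7sf2 stood at 37.2 and 32.99 CPM with the Gpr56 vector, against 26.6 and 29.6 CPM in empty-vector cells (0.33, SE 0.10, adjusted p = 0.0257), and its reads can be shared with Vps51, which overlaps it on the same strand. Msmo1, the most abundant gene of this group, stood at 260.5 and 256 CPM with the Gpr56 vector, against 240.4 and 233 CPM in empty-vector cells, higher in both Gpr56 libraries but not called (0.13, SE 0.05, adjusted p = 0.109). Sqle, squalene epoxidase and a rate-limiting step, stood at 221 and 229.6 CPM with the Gpr56 vector, against 248 and 229 CPM in empty-vector cells, with overlapping groups and a log2 fold change of -0.08 (95% interval -0.21 to 0.04). Cyp51, the lanosterol demethylase, had 0.02 (-0.10 to 0.13). Called and uncalled enzymes thus lay next to each other along the sterol steps. Hsd17b7, a sterol ketoreductase, missed the threshold at 0.20, SE 0.07, adjusted p = 0.0521, and Ebp, Sc5d and Dhcr7 had log2 fold changes from -0.01 to 0.07.

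Reads of Fdft1 need care because the libraries do not mark strand and its exons overlap those of Ctsb, on the other strand, by up to 774 bases in GENCODE M21. Ctsb was not called in 4T1 (log2 fold change 0.09, adjusted p = 0.257). Within Fdft1, the transcript Fdft1-201 held 85.6% and 85.9% of the gene's reads with the Gpr56 vector, against 79.7% and 80.3% with the empty vector. The longer Fdft1-204 held 11.5% and 10.5% with the Gpr56 vector, against 17.2% and 16.1% with the empty vector. The 4T1 groups did not overlap in either share, which was not tested.

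Among the regulators, Insig1 stood at 271 and 271 CPM with the Gpr56 vector, against 217 and 224 CPM in empty-vector cells (log2 fold change 0.30, SE 0.05, adjusted p = 0.00113). Srebf2 stood at 207 and 212 CPM with the Gpr56 vector, against 185 and 183 CPM in empty-vector cells (0.18, SE 0.05, adjusted p = 0.0248). The Gpr56 libraries were above the empty ones for both genes. Leaving out 1 library ended 4 calls in 4T1. Srebf2 missed the threshold without empty library 1 (log2 fold change 0.20, edgeR adjusted p = 0.150) or empty library 2 (0.18, adjusted p = 0.220), Tm7sf2 without empty library 1 (0.25, adjusted p = 0.258) or Gpr56 library 1 (0.23, adjusted p = 0.162), and Hmgcs1 (0.24, adjusted p = 0.0528) and Fasn (0.18, adjusted p = 0.183) without empty library 2. Srebf1 stood at 92.01 and 78.8 CPM with the Gpr56 vector, against 76.5 and 79.7 CPM in empty-vector cells with overlapping groups (log2 fold change 0.14, 95% interval -0.02 to 0.29). Scap had -0.01 (-0.14 to 0.11), Insig2, a second retention protein, 0.17 (-0.05 to 0.39), and Stard4, a soluble sterol carrier, 0.13 (-0.02 to 0.27).

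Of the fatty acid genes, the desaturases Scd1, Scd2 and Fads2 and the synthase Fasn rose. Scd2 stood at 1242 and 1274 CPM with the Gpr56 vector, against 957 and 883 CPM in empty-vector cells, the largest change of the 32 (log2 fold change 0.45, SE 0.05, adjusted p = 3.26e-05). Scd1, its neighbour on chromosome 19 and also a stearoyl-CoA desaturase, stood at 113 and 121 CPM with the Gpr56 vector, against 94.3 and 93.3 CPM in empty-vector cells (0.31, SE 0.06, adjusted p = 0.00189). Fads2, the delta-6 desaturase of polyunsaturated fatty acids, stood at 121 and 129 CPM with the Gpr56 vector, against 98.3 and 89.9 CPM in empty-vector cells (0.40, SE 0.06, adjusted p = 4.28e-04). For each of these desaturases both Gpr56 libraries were above both empty ones. Fasn, the gene of the set with the most reads in 4T1, stood at 1308 and 1303 CPM with the Gpr56 vector, against 1155 and 1083 CPM in empty-vector cells (0.22, SE 0.05, adjusted p = 0.00583), again with no overlap. Fads1, the delta-5 desaturase that acts after Fads2, stood at 66.2 and 66.9 CPM with the Gpr56 vector, against 73.8 and 75.2 CPM in empty-vector cells, lower in both Gpr56 libraries and not called (-0.16, SE 0.06, adjusted p = 0.0737). Acly, which makes cytosolic acetyl-CoA, Acaca, which carboxylates it, and the elongase Elovl6 were not called, with 95% intervals of -0.09 to 0.13, -0.08 to 0.15 and -0.12 to 0.12. The near relatives Scd3 and Scd4 had 9 to 69 reads per library.

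**Figure D2:**
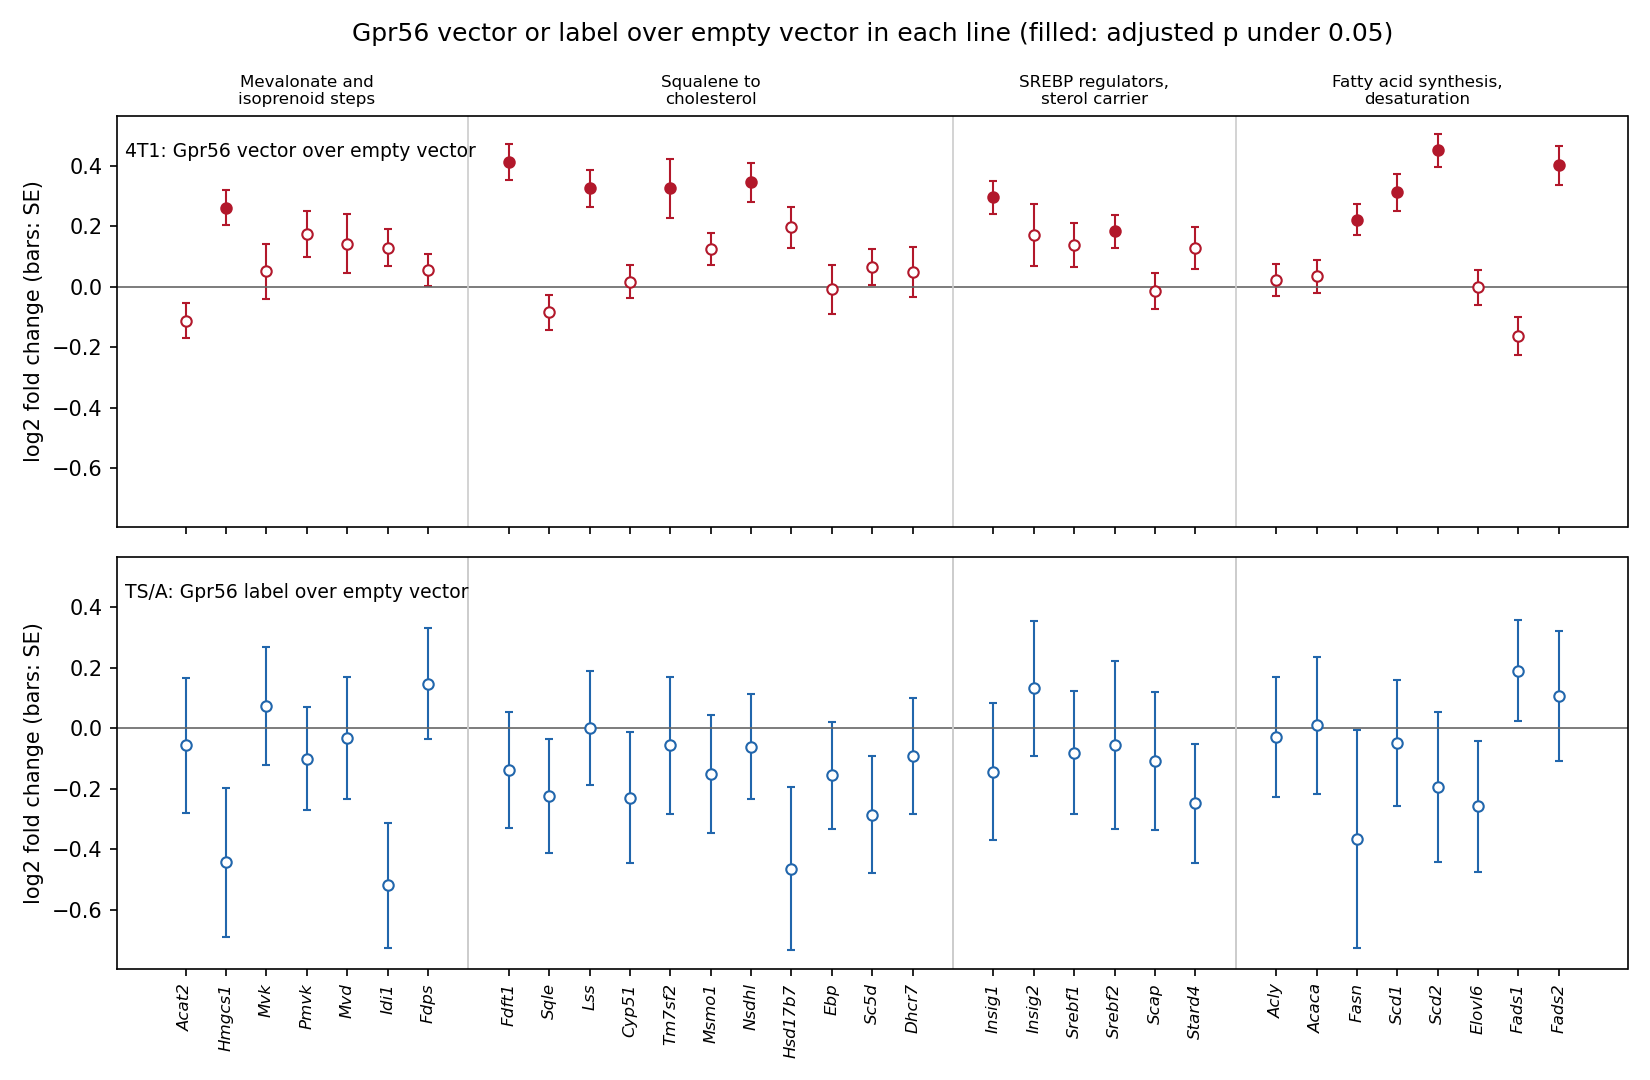
Log2 fold change of each gene by role, with bars for the standard error and filled points for an adjusted p under 0.05, in 4T1 (upper panel, Gpr56 over empty vector) and TS/A (lower panel, Gpr56 label over empty vector). In 4T1, 11 points are filled, led by Scd2 at 0.45. In TS/A no point is filled, 25 of 32 lie below 0, and the bars are wider.

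Summed over the 32 genes, reads made up 0.708% and 0.713% of the library in 4T1 with the Gpr56 vector, against 0.621% and 0.595% in 4T1 with the empty vector. Fatty acid genes alone took 0.378% and 0.385% with the Gpr56 vector and 0.326% and 0.305% with the empty vector. In TS/A the 32 genes made up 0.678% and 0.554% with the Gpr56 label, against 0.803% and 0.600% with the empty vector, and these groups overlapped.

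Related genes outside the set were called in both directions in 4T1, and their counts are to be read against the 11.5% that rose and 11.3% that fell over all genes. Of 20 tested genes of other fatty acid and glycerolipid steps, 5 rose and 2 fell. Lpin1, a phosphatidate phosphatase, stood at 18.5 and 20.1 CPM with the Gpr56 vector, against 12.8 and 13.3 CPM in empty-vector cells (0.55, SE 0.12, adjusted p = 0.00456). Slc25a1, the mitochondrial citrate carrier, stood at 75.6 and 73.1 CPM with the Gpr56 vector, against 54.5 and 49.5 CPM in empty-vector cells (0.52, SE 0.07, adjusted p = 9.15e-05), and the elongase Elovl7 at 30.8 and 31.6 CPM with the Gpr56 vector, against 22.8 and 22.1 CPM in empty-vector cells (0.47, SE 0.10, adjusted p = 0.00272). The acyl-CoA synthetase Acsl1 (-0.41) and Lpin2 (-0.28) fell. Of 7 genes that process or turn over SREBPs, 0 rose and 3 fell. These were Mbtps1, the site-1 protease that cleaves SREBPs, at 191 and 198 CPM with the Gpr56 vector, against 223 and 225 CPM in empty-vector cells (-0.21, SE 0.06, adjusted p = 0.0137), the ubiquitin ligase Rnf139 (-0.34, SE 0.06, adjusted p = 0.00107) and Fbxw7, a ubiquitin ligase subunit that directs nuclear SREBPs to degradation (-0.38, SE 0.11, adjusted p = 0.0259). Of 13 tested genes of sterol uptake, transport, storage and efflux, 1 rose and 2 fell, among them the oxysterol-binding protein Osbp (0.26) and the lysosomal lipase Lipa (-0.47). Of 8 genes of isoprenoid branches, 0 rose and 1 fell, Pdss2 of ubiquinone side chain synthesis (-0.40).

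In TS/A, 0 of the 32 genes passed between the libraries labelled Gpr56 and the empty ones, as did 0% of all 11276 genes tested by edgeR. At an unadjusted p under 0.05 the test took 1 of the 32 and 1.02% of all genes. The DESeq2 Wald test called 0 of the 32 and 3 of all genes. The median log2 fold change of the 32 was -0.10, against -0.02 over all genes, and 25 of 32 were below 0. Groups did not overlap in the higher direction for 2 genes (Fdps and Fads1) and in the lower direction for 3 (Hmgcs1, Pmvk and Idi1), against 11.3% and 10.4% of all genes.

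Idi1 was the gene with an unadjusted p under 0.05, at 412 and 360.1 CPM in the libraries labelled Gpr56, against 504 and 599.5 CPM in the empty-vector ones (log2 fold change -0.52, SE 0.21, unadjusted p = 0.0463 and adjusted p = 1 by edgeR). Hmgcs1 stood at 407 and 277 CPM in the libraries labelled Gpr56, against 505 and 424 CPM in the empty-vector ones, with a log2 fold change of -0.44 and a 95% interval of -1.05 to 0.16. For both genes the 2 groups did not overlap. The desaturase Scd2, at 880.3 and 779 CPM in the libraries labelled Gpr56, against 1129 and 770.2 CPM in the empty-vector ones, had an interval of -0.80 to 0.41, and Fdft1 one of -0.61 to 0.33. The intervals of all 11 genes that rose in 4T1 included 0 in TS/A, with upper bounds from 0.16 for Hmgcs1 to 0.63 for Fads2.

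The 2 libraries of a TS/A group differed from each other. In the empty group, Fasn stood at 957 CPM in library 1 and 479 CPM in library 2, a log2 ratio of 1.0, while Acat2, with shorter transcripts, gave -0.44. Over the 32 genes this ratio rose with transcript length (Spearman 0.73), as it did over 8609 genes of at least 10 CPM (0.67). As unscaled CPM, its median over those genes was -0.29 up to the 25th percentile of length and 0.62 from the 75th. TMM-scaled ratios, as given for Fasn and Acat2, lie lower, since the TMM factor was 1.06 for library 1 and 0.948 for library 2. The correlations and medians are descriptions across genes of the same 2 libraries. In the TS/A libraries labelled Gpr56, 31 of 32 genes were higher in library 1, with ratios from -0.41 for Insig2 to 0.62 for Hsd17b7. There the Spearman correlation with length was 0.17 over the 32 and 0.16 over 8612 genes. As unscaled CPM, the median ratio of the 32 was 0.26. Over the 8612 genes it was -0.02 up to the 25th percentile of length and 0.07 from the 75th. The share of all genes higher in library 1 is not given here. In 4T1 the ratios stayed between -0.16 and 0.22 in both groups. The part of the length relation of the TS/A empty group in the TS/A results was not tested. For Fasn, the TS/A log2 fold change of Gpr56 label over empty vector, -0.37 with all libraries, became -0.76 when empty library 2 was dropped. Leaving out empty library 1 instead gave 0.21. Each of these 2 values rests on 1 empty library.

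**Figure D3:**
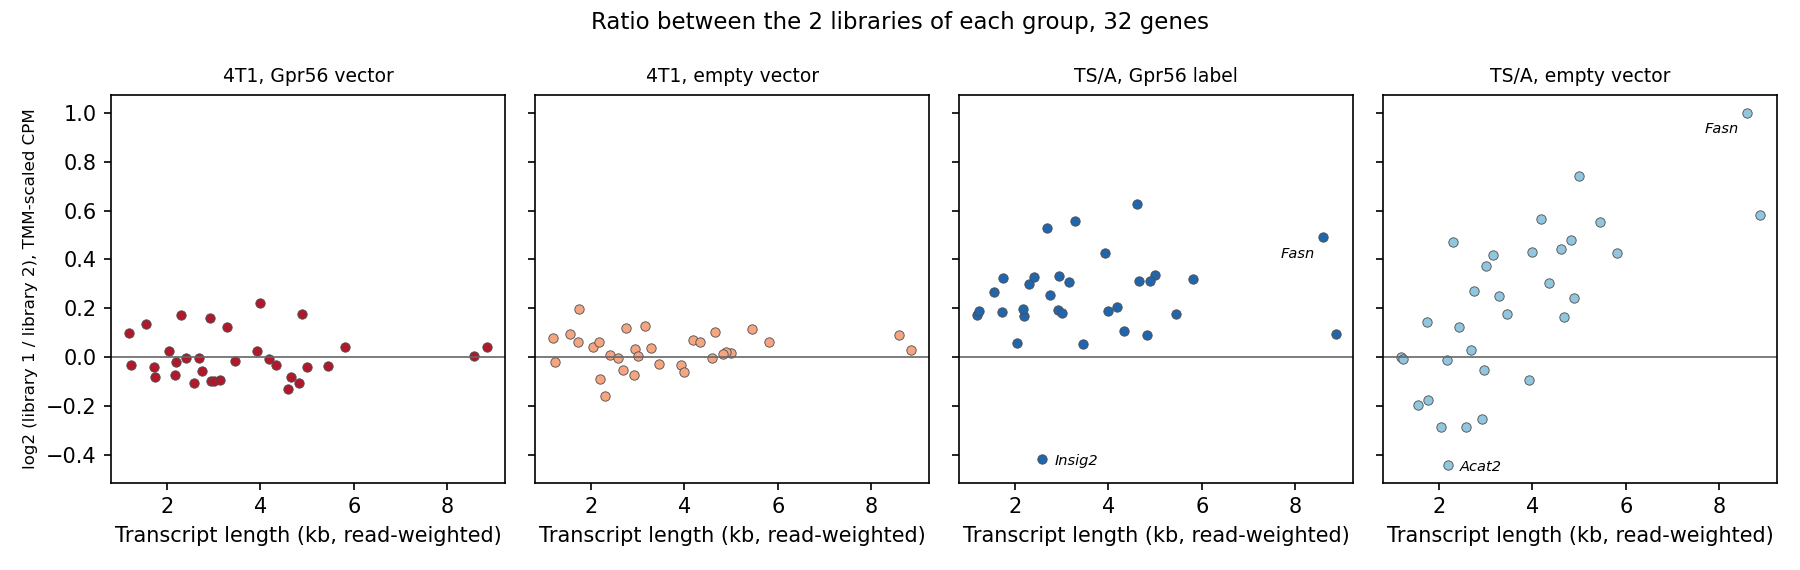
Log2 ratio of library 1 to library 2 within each group (TMM-scaled CPM) against read-weighted transcript length in kilobases, with 1 point for each of the 32 genes. In the TS/A empty group the ratio climbs with length to 1.0 for Fasn. In both 4T1 groups it stays between -0.16 and 0.22.

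The difference between the lines was tested as the Gpr56 label over empty vector in TS/A minus the Gpr56 vector over empty vector in 4T1, from the same libraries as the 2 tests above. Adgrg1 was not higher in the TS/A libraries labelled Gpr56, so the TS/A term compares labels and is not shown to be an effect of the vector. None of the 32 genes passed, beside 0.0668% of 11970 genes (8 genes, 0.0167% higher and 0.0501% lower) by edgeR, and 5 had an unadjusted p under 0.05, against 6.4% of all genes. The DESeq2 Wald test called 65 genes and 0 of the 32. The median difference over the 32 was -0.26, against -0.01 over all genes, and 28 of 32 were below 0. The 5 were Hmgcs1 (difference -0.70, 95% interval -1.30 to -0.11, unadjusted p = 0.0264, adjusted p = 0.703), Idi1 (-0.64, -1.08 to -0.20), Fdft1 (-0.55, -0.98 to -0.12), Nsdhl (-0.41, -0.79 to -0.03) and Scd2 (-0.65, -1.24 to -0.06). Each of the 5 had a positive log2 fold change in 4T1 and a negative one in TS/A.

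This result turned on 1 library. Without TS/A empty library 2, 13 of the 32 genes passed in the lower direction, beside 19.5% of all genes in either direction. They were Hmgcs1, Idi1, Fdft1, Tm7sf2, Hsd17b7, Sc5d, Srebf2, Stard4, Fasn, Scd1, Scd2, Elovl6 and Fads2. Without TS/A empty library 1, Idi1 passed alone (-0.76, SE 0.13, adjusted p = 0.0173). Each of these values rests on 1 TS/A empty library, which is assumed to vary like the other groups.

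With the empty vector, the lines differed more. In TS/A, 12 of the 32 genes were higher than in 4T1 and 3 were lower, beside 23.9% and 23.5% (47.4% together) of the 11970 genes tested by edgeR with all 8 libraries. An unadjusted p under 0.05 took 17 of the 32 and 55.3% of all genes. The lines did not overlap in the higher direction for 18 genes and in the lower direction for 6, against 35.9% and 36.6% of all genes. The comparison shares its empty libraries with the vector tests. Epithelial markers summed, as unscaled CPM, to 190.2 and 201 in TS/A, against 2126 and 2094 in 4T1. Fibroblast markers summed to 344 and 139 in TS/A, against 15.4 and 15.03 in 4T1, most of it Col1a1 in TS/A. Of these 6 fibroblast markers 2 could be tested, and Col1a1 alone was called. Pdgfra stood at 15.0 and 8.40 CPM in TS/A, against 13.3 and 13.3 CPM in 4T1. Col1a2, Col3a1, Dcn and Lum were below 1 CPM in both lines. The part of these markers in the line differences was not tested. The median log2 fold change of the 32 was 0.26, against 0.01 over all genes. Of the mevalonate and isoprenoid genes, 6 of 7 were higher in TS/A, with a median of 0.66. Of the other roles, 3 of 11 genes from squalene to cholesterol, 2 of 6 regulators and carriers and 1 of 8 fatty acid genes were higher, and 1 gene of each was lower.

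Of the mevalonate steps, Idi1 stood at 504 and 599.5 CPM in TS/A, against 279.7 and 294 CPM in 4T1 (log2 fold change 0.94, SE 0.14, adjusted p = 8.92e-04). Hmgcs1 stood at 505 and 424 CPM in TS/A, against 274 and 267 CPM in 4T1 (0.78, SE 0.18, adjusted p = 0.00933), and Acat2 at 214 and 291 CPM in TS/A, against 149 and 159 CPM in 4T1 (0.71, SE 0.15, adjusted p = 0.00614). Both TS/A libraries were above both 4T1 libraries for each of these genes. The mevalonate kinase Mvk stood at 43.7 and 50.02 CPM in TS/A, against 33.97 and 31.8 CPM in 4T1 (0.51, SE 0.14, adjusted p = 0.0184). The phosphomevalonate kinase Pmvk stood at 66.6 and 66.5 CPM in TS/A, against 43.3 and 41.01 CPM in 4T1 (0.66, SE 0.12, adjusted p = 0.00250), and Fdps at 328 and 329.8 CPM in TS/A, against 222 and 225 CPM in 4T1 (0.56, SE 0.11, adjusted p = 0.00411). Again no group overlapped. Mvd, the decarboxylase between Pmvk and Idi1, was the exception at 30.5 and 34.4 CPM in TS/A, against 32.3 and 28.2 CPM in 4T1, with a log2 fold change of 0.10 and a 95% interval of -0.25 to 0.45.

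From squalene synthesis to cholesterol the genes went in both directions. Cyp51 stood at 359 and 383 CPM in TS/A, against 197 and 202 CPM in 4T1 (log2 fold change 0.89, SE 0.15, adjusted p = 0.00171). Hsd17b7 stood at 113 and 82.7 CPM in TS/A, against 56.2 and 56.3 CPM in 4T1 (0.80, SE 0.22, adjusted p = 0.0176). Fdft1 stood at 166 and 173 CPM in TS/A, against 119 and 116 CPM in 4T1 (0.53, SE 0.13, adjusted p = 0.0116). All 3 were higher in TS/A without overlap, but Ctsb, which overlaps Fdft1 on the other strand, was also higher there (log2 fold change 1.23, adjusted p = 1.32e-04), and its part in the Fdft1 value was not tested. Sqle was lower, at 163 and 135 CPM in TS/A, against 248 and 229 CPM in 4T1 (-0.68, SE 0.14, adjusted p = 0.00474). Msmo1, at 262 and 319 CPM in TS/A, against 240.4 and 233 CPM in 4T1, was not called (0.29, SE 0.12, adjusted p = 0.0781). The other 6, Lss, Tm7sf2, Nsdhl, Ebp, Sc5d and Dhcr7, ran from -0.14 to 0.37, and none passed.

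The regulators held the largest line differences of the set. Insig2 stood at 56.2 and 68.4 CPM in TS/A, against 23.2 and 23.2 CPM in 4T1 (log2 fold change 1.42, SE 0.17, adjusted p = 3.30e-04), and Stard4 at 206 and 174 CPM in TS/A, against 76.9 and 75.8 CPM in 4T1 (1.31, SE 0.15, adjusted p = 2.35e-04). Scap was lower, at 84.4 and 57.1 CPM in TS/A, against 113 and 108 CPM in 4T1 (-0.64, SE 0.18, adjusted p = 0.0194). The lines did not overlap for any of these 3. Insig1, at 266 and 260.1 CPM in TS/A, against 217 and 224 CPM in 4T1, was higher in TS/A without overlap but not called (0.25, SE 0.16, adjusted p = 0.232). The transcription factors Srebf1 and Srebf2 had log2 fold changes of -0.17 (95% interval -0.55 to 0.21) and 0.32 (-0.19 to 0.83). Per length, Insig2 made up 19.2% to 31.6% of the sum of Insig1 and Insig2 RPKM in the 4 TS/A libraries, against 9.56% to 13.0% in the 4 4T1 libraries. This share, and that of the desaturases given next, was chosen after its values were seen.

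Among the fatty acid genes, Scd1 stood at 223 and 160.01 CPM in TS/A, against 94.3 and 93.3 CPM in 4T1 (log2 fold change 1.03, SE 0.16, adjusted p = 0.00125), and Scd2 at 1129 and 770.2 CPM in TS/A, against 957 and 883 CPM in 4T1 (0.05, SE 0.18, adjusted p = 0.850). Scd1 did not overlap between the lines and Scd2 did. Scd1 made up 18.2% to 20.6% of the summed RPKM of both genes in TS/A, against 9.27% to 10.6% in 4T1. Fads2 was lower in TS/A, at 62.5 and 46.8 CPM in TS/A, against 98.3 and 89.9 CPM in 4T1 (-0.78, SE 0.17, adjusted p = 0.00599). Fasn was lower in both TS/A libraries, at 957 and 479 CPM in TS/A, against 1155 and 1083 CPM in 4T1, but was not called (-0.64, SE 0.29, adjusted p = 0.106). Its value depended on the library, with -1.22, SE 0.16, adjusted p = 2.46e-05 without TS/A empty library 1 and -0.23, SE 0.15, adjusted p = 0.205 without TS/A empty library 2. Acaca was likewise called lower without TS/A empty library 1 (-0.72, SE 0.09, adjusted p = 1.41e-05) and not with both (-0.40, SE 0.18, adjusted p = 0.0951).

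**Figure D4:**
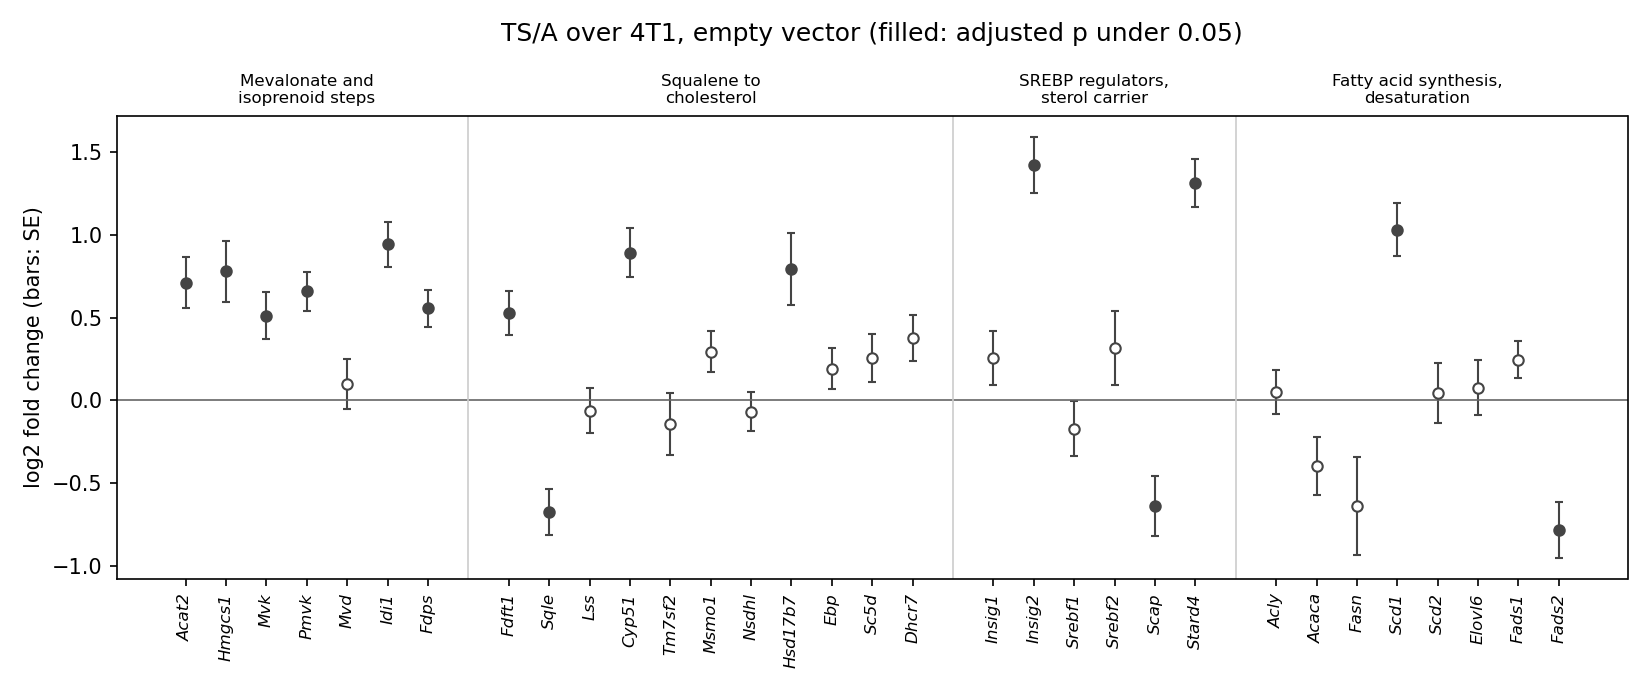
Log2 fold change of TS/A over 4T1 with the empty vector for each gene by role, with bars for the standard error and filled points for an adjusted p under 0.05. Of the mevalonate genes, 6 of 7 are filled and above 0, and Insig2 at 1.42 and Stard4 at 1.31 are the highest points, while Sqle, Scap and Fads2 are filled below 0.

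The calls in the line comparison moved with the libraries left out, as did the counts over all genes. Of the 15 genes, 7 (Pmvk, Idi1, Cyp51, Insig2, Stard4, Scd1 and Sqle) passed in the same direction under all 16 alternatives run. Mvk lost its call in 4 of the 16, Hmgcs1, Fdft1, Hsd17b7 and Scap in 2 each, and Acat2, Fads2 and Fdps in 1 each. None of the 15 reversed. The log2 fold change ran from 1.27 to 1.56 for Insig2 and from 0.25 to 0.62 for Fdft1.

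Genes around the set also differed between the lines, to be read against 23.9% higher and 23.5% lower over all genes. Among genes that process or turn over SREBPs, the site-2 protease Mbtps2 was higher in TS/A (log2 fold change 0.38), and the ubiquitin ligase Rnf139 (-1.30) and the endoplasmic reticulum protein Erlin2 (-0.31) were lower. Of 14 tested genes of sterol uptake, transport, storage and efflux, 6 were higher and 4 lower, led by Lipa at 50.4 and 40.004 CPM in TS/A, against 21.6 and 19.1 CPM in 4T1 (1.15, SE 0.16, adjusted p = 6.90e-04) and the lysosomal sterol carrier Npc2 at 407 and 416 CPM in TS/A, against 230.3 and 223 CPM in 4T1 (0.86, SE 0.12, adjusted p = 7.62e-04). Lower were Osbp at 60.3 and 35.7 CPM in TS/A, against 75.7 and 79.3 CPM in 4T1 (-0.69, SE 0.22, adjusted p = 0.0333) and the sterol transporter Gramd1a (-0.40, SE 0.14, adjusted p = 0.0483), besides 2 genes below 10 CPM. Of 20 tested genes of other fatty acid and glycerolipid steps, 6 were higher and 7 lower. Those higher included the malic enzyme Me1, a source of NADPH, at 196 and 211 CPM in TS/A, against 101 and 97.1 CPM in 4T1 (1.04, SE 0.11, adjusted p = 1.42e-04), and the acetyl-CoA synthetase Acss2 at 55.4 and 47.1 CPM in TS/A, against 25.4 and 24.7 CPM in 4T1 (1.03, SE 0.13, adjusted p = 5.13e-04). Dgat2, which makes triglyceride, was lower at 5.86 and 7.05 CPM in TS/A, against 13.9 and 15.3 CPM in 4T1 (-1.18, SE 0.17, adjusted p = 9.26e-04). Of 8 genes of isoprenoid branches, 3 were higher and 2 lower, led by the geranylgeranyl diphosphate synthase Ggps1 (0.82, SE 0.15, adjusted p = 0.00285).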

How the data were processed

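RNA sequencing libraries of 4T1 and TS/A cells were made, per the labels' protocols, from RNeasy Mini Kit RNA with TruSeq RNA v2 reagents, a protocol without strand information. The authors deposited, per the file headers, a whole-number read count and an RPKM value for each of 65042 transcripts. Which aligner, counter and build were used is not given in the sources used here. As a check, deposited RPKM equalled reads over transcript length and 1 factor per library, within 0.001, in 98.4% of those transcripts that held 21 reads or more. RPKM was used to compare levels between genes and in no test.

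Counts were summed per gene name. Of the transcripts, 65023 were found in GENCODE M21 (GRCm38), which gave overlaps between genes. Tests used edgeR 4.0.16 in R 4.3.3 (filterByExpr, TMM, glmQLFit and glmQLFTest) with Benjamini-Hochberg adjustment over all genes tested, a threshold of 0.05 and no fold limit. Each line was fitted alone for its vector test, since the spread differs between lines, and all 8 libraries were fitted together for the line comparison and the difference between the lines in Gpr56 label over empty vector. Each standard error was taken as the log2 fold change over the root of the quasi-likelihood F, and 95% intervals use its degrees of freedom. Alternatives included DESeq2 1.42.0 and voom of limma 3.58.1. The procedure was tested on simulated counts.

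The members, gene lists and alternatives were chosen with earlier results of these data known. Values per library are given for members called in a comparison and for the most abundant member of each role. From other lists, up to 3 genes each way of at least 10 CPM were taken, by size of change. Uncalled members named with values were added after their values were seen. Some genes of the pathway are not reported here. Libraries of a group differed by more than sampling noise (chi-square over degrees of freedom 3.64 to 123), so none was counted as a repeat.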

Additional observations from a re-analysis of the deposited data

How the results depend on the processing

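The number of the 32 genes called was recomputed under each alternative. Counts over all genes are given below for some settings only, so a range alone does not show whether the 32 moved more than other genes. In 4T1 the count of 11 became 0 with all 8 libraries in 1 fit, in which the TS/A libraries enter the estimate of the spread. It ran from 8 to 14 when each 4T1 library was left out in turn and from 8 to 13 under the other settings, and 0 of the called genes reversed. In TS/A the count of 0 ran from 0 to 1 over the left-out libraries. For the line comparison the count of 15 ran from 7 to 21 over the left-out libraries, and 7 of the 15 calls held under every alternative run. For the difference of label effects (TS/A minus 4T1) the count of 0 ran from 0 to 13, reaching 13 without TS/A empty library 2 and 1 when empty library 1 was dropped in its place.

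Counts over all genes moved more. In 4T1 the 2588 genes called became 27 with all 8 libraries in 1 fit, 1549 by the DESeq2 Wald test, and 1596 and 1403 without 4T1 empty library 1 or 2. In TS/A the 0 genes called became 1 with all 8 libraries in 1 fit and with voom, 3 by DESeq2, 4 with no filter on low counts, 26 with the replicate block, 13 and 1140 without empty library 1 or 2, and 4 and 13 without the library labelled Gpr56 1 or 2. Between lines, 5674 became 3335 and 3349 without 4T1 empty library 1 or 2. For the difference, 8 became 65 by DESeq2, 60 with no filter, 37 with the replicate block, 4 with library totals and with voom, and 311 and 2391 without TS/A empty library 1 or 2. Leaving out any 4T1 library or any TS/A library labelled Gpr56 gave 0 or 1. The cause of these moves was not tested.

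With the replicate number as a replicate block, 12 of the 32 genes were called in 4T1, 0 in TS/A, 16 between lines and 0 for the difference. The shares over all genes beside these 12 and 16 are not given here. The replicate numbers were not taken to pair libraries, since no label says that they do and each line has 2 pairs. Deviations of same-numbered libraries correlated at -0.051 in 4T1 and 0.496 in TS/A.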
